A study of Homo sapiens with 6 samples.

Results

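Chromatin accessibility was examined at 8 genes that make or remove phosphatidic acid: PLD1 and PLD2 (phospholipase D), LPIN1, LPIN2 and LPIN3 (lipins), and PLPP1, PLPP2 and PLPP3 (lipid phosphate phosphatases). The genes were chosen by name and are 8 of the 20037 protein-coding genes of the RefSeq table. A peak was assigned to a gene when it overlapped the gene's GRCh38 span or the 10 kb on either side, here called its window. The assay was ATAC-seq, in which a transposase cuts accessible DNA, in NCI-H1703, an established line of lung squamous cell carcinoma. Of its 6 libraries, 3 came from cells labelled as silenced for the long non-coding RNA DLGAP1-AS2 and 3 from cells labelled control (titled ASO and NC, terms the labels do not explain). Both groups are the same line, and nothing in the labels says that the libraries of a group came from separate cultures, so the p-values measure only the spread between these libraries. The lists hold accessible intervals and no RNA, so the degree of silencing and the expression of the 8 genes were not analysed here.

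Phosphatidic acid is a signalling lipid and a branch point of glycerolipid synthesis. Phospholipase D releases it from phosphatidylcholine, whereas lipins, inside the cell, convert it to diacylglycerol. Lipid phosphate phosphatases are membrane enzymes that remove the phosphate from phosphatidic acid, lysophosphatidic acid and sphingosine 1-phosphate. The series' title links DLGAP1-AS2 to phosphatidic acid synthesis and to the co-activator YAP. The comparison therefore asked whether chromatin at these genes differed once DLGAP1-AS2 was silenced.

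RefSeq lists 9 transcription starts for 6 of the genes, and the table used here held no entry for LPIN3 or PLPP1. A peak overlapped the 200 bases before the start in all 6 libraries at 5 of the 9 starts: those of PLD1, PLD2 and PLPP3, the third start of LPIN1 and the first start of LPIN2. At the other 4 (the first and second starts of LPIN1, the second of LPIN2 and the start of PLPP2) no library had a peak over these bases. The 200 bases of PLPP2 lie inside its span, which ends at 291403, upstream of the listed start. Whether the listed start is the main one of PLPP2 was not tested. Starts are numbered in the direction of transcription. The sequences below (RefSeq, GRCh38.p14, 5′ to 3′, ending at the base before the start) show the 5 accessible starts and, for contrast, 2 starts with no peak over them, the second of LPIN1 and that of PLPP2. Capitals mark matches, on either strand, to the GC box GGGCGG, the CCAAT box, the TEAD core GGAATG (TEAD factors are the DNA-binding partners of YAP), the AP-1 motif TGANTCA and the E-box CANNTG. Matches that overlap are joined.
PLD1 start, chr3:171810484-171810683, - strand: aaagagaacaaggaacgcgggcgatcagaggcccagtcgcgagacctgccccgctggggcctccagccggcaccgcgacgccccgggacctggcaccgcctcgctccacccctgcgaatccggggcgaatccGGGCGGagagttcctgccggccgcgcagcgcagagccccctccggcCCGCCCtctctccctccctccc
PLD2 start, chr17:4806952-4807151, + strand: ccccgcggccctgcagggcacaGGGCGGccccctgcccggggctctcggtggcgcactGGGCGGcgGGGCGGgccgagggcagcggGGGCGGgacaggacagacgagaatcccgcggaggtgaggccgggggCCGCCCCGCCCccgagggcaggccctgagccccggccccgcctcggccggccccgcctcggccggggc
LPIN1, the second start, chr2:11724115-11724314, + strand: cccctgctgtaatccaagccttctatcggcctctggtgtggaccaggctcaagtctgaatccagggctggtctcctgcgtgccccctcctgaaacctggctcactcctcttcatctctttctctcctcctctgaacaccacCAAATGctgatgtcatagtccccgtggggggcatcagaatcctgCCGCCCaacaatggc
LPIN1, the third start, chr2:11746432-11746631, + strand: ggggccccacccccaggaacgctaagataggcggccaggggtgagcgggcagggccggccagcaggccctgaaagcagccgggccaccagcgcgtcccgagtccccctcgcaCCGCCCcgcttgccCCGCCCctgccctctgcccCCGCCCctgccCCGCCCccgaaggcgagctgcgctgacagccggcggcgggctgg
LPIN2, the first start, chr18:3013145-3013344, - strand: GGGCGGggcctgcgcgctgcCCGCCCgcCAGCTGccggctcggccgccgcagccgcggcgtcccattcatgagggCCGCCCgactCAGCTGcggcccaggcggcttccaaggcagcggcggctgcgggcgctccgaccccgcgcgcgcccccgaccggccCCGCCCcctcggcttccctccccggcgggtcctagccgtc
PLPP2 start, chr19:291140-291339, - strand: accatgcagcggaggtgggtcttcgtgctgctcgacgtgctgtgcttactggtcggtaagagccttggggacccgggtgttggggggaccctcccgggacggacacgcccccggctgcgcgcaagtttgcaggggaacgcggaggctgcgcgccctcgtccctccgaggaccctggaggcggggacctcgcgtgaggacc
PLPP3 start, chr1:56579564-56579763, - strand: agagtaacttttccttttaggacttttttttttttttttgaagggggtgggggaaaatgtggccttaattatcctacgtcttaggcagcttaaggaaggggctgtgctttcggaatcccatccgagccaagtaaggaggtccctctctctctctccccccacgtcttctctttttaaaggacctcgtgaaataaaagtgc

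Of the 5 accessible starts, 4 were rich in G and C. The share of G and C in the 200 bases was 85% at PLD2, 82.5% at the first start of LPIN2, 79% at the third start of LPIN1 and 74.5% at PLD1, against a median of 63% over 22197 starts of protein-coding genes. GC boxes numbered 6 at PLD2, 4 at LPIN2, 4 at LPIN1 and 2 at PLD1, and 50.9% of all protein-coding starts hold at least 1. PLPP3 differed from these, with 45% G and C and no match to any of the 5 motifs. Among the starts without a peak, the second start of LPIN2 had 34.5% G and C, the first and second starts of LPIN1 had 55% and 57.5%, and the start of PLPP2 had 70.5%. None of these 9 stretches held the TEAD core, the AP-1 motif or the CCAAT box, which occur in 8.10%, 4.30% and 28.9% of all starts. E-boxes, found in 50.1% of starts, numbered 2 at the first start of LPIN2, 2 at the first start of LPIN1 and 1 at the second start of LPIN1. These counts describe only the letters of each stretch.

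**Figure D1:**
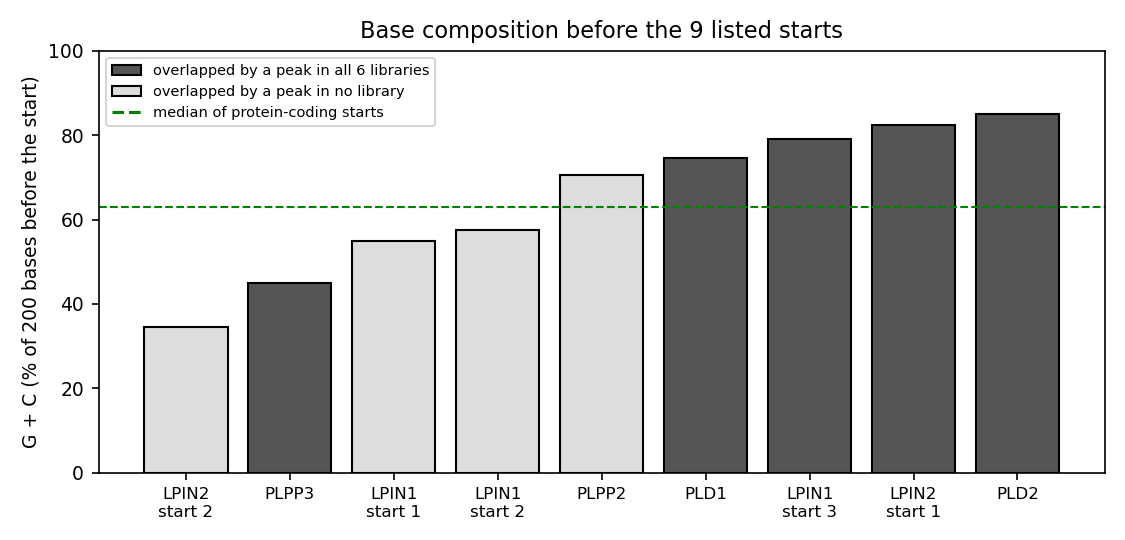
Share of G and C (%) in the 200 bases before each of the 9 RefSeq starts, 1 bar per start, dark where a peak overlapped these bases in all 6 libraries and light where none did; the dashed line is the median of 22197 protein-coding starts (63%). Dark bars stand at 74.5% to 85%, with the exception of PLPP3 at 45%.

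The lists held 91346 to 170882 peaks per library on the chromosomes. Peak height is the pileup of fragments at the top of a peak as the authors gave it, not scaled to a common depth. Silenced replicate 3 stood apart: over the 37284 regions called in all 6 lists its median height was 10, against 16 to 19 in the other libraries, and its background coverage was 0.237 against 0.369 to 0.464. It was the lowest library at 20 of the 23 member regions called in every list, so counts of direction and the regions with the smallest p-values are also given without it. Control replicate 2 differed in another way, with the shortest list (91346 peaks) and fewer weak peaks. Its median height over the whole list was 8, against 3 to 4 in the others, and its lowest was 3, against 2. Start-site peaks of lineage markers were read as a check of the labelled cell type. Of 7 squamous markers only SOX2 had a start-site peak in all 6 libraries; KRT5 and KRT6A had none in any library, and TP63, KRT14, DSG3 and PKP1 had one in a single library each. Such peaks were called in all 6 libraries at 4 of 4 mesenchymal markers (VIM, CDH2, ZEB1, FN1) and 2 of 4 epithelial markers (KRT8, KRT18). The same held for 3 of 5 adenocarcinoma and alveolar markers (NKX2-1, NAPSA, SFTPC), 1 of 4 neuroendocrine, 1 of 4 immune and 0 of 2 endothelial markers. The share over all protein-coding genes was 60.2%.

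All 8 genes had a peak within 1 kb of a listed start (of either end of the span for LPIN3 and PLPP1) in 5 libraries, and 7 had one in silenced replicate 3. Over all protein-coding genes, 60.2% had such a peak in all 6 libraries and 17.8% in none. The exception in silenced replicate 3 was PLPP2, whose peak there covered chromosome 19, 289646 to 289910, farther from the start than 1 kb.

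Both phospholipase D genes had a tall start-site peak. At PLD1 (chromosome 3, 171809569 to 171810716), the isoform known for activation by small GTPases, peak heights of silenced replicates 1 to 3, in that order, were 39, 43 and 13, and those of control replicates 1 to 3 were 33, 53 and 41. Values are listed in this order throughout. At PLD2 (chromosome 17, 4806567 to 4807488), the isoform of high basal activity, they were 33, 39 and 12 in silenced and 37, 29 and 39 in control libraries. In both genes silenced replicate 3 was lowest and the other silenced libraries lay within the range of the controls. The PLD2 region also covers the start of C17orf114, so accessibility there cannot be assigned to PLD2 alone.

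The lipins differed widely from each other. At the third start of LPIN1 (chromosome 2, 11746371 to 11747002) the heights were 48, 44 and 19 in silenced and 43, 54 and 41 in control libraries. LPIN2 had 25, 30 and 10 in silenced and 33, 37 and 36 in control libraries at its first start (chromosome 18, 3012945 to 3013739). The LPIN2 groups did not overlap, each silenced library being below each control library. LPIN3, the third lipin, had a weaker peak 464 bp outside its span (chromosome 20, 41339858 to 41340357), 10 and 9 high in the first and second silenced libraries and 13, 11 and 16 high in the controls, with no call in silenced replicate 3. A separate weaker region close by, at 41340574 to 41340807, was called in silenced replicates 2 and 3, at heights of 7 and 6, and in no other library.

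Among the lipid phosphate phosphatases PLPP1 had the tallest start-site peak. It covered an end of the PLPP1 span (chromosome 5, 55534081 to 55535520), where it also overlapped the pseudogene RNF138P1, with heights of 54, 53 and 17 in silenced and 62, 57 and 60 in control libraries, again without overlap between groups. PLPP3 (chromosome 1, 56578970 to 56579869), which encodes an enzyme that degrades extracellular lysophosphatidic acid, had 22, 19 and 12 in silenced and 19, 25 and 22 in control libraries. PLPP2 had the weakest of the 3, 306 bp from its listed start (chromosome 19, 289556 to 290833), with 13, 11 and 7 in silenced and 10, 16 and 9 in control libraries. The 7 belongs to the peak of silenced replicate 3 that lay farther than 1 kb from the start. At PLPP2 and PLPP3 the groups overlapped. Heights lay entirely below the controls at 3 of the 23 shared member regions (13.0%), namely the LPIN2 and PLPP1 start sites and a region beyond LPIN1, and entirely above at 0. The corresponding shares over all 37284 shared regions were 8.79% and 0.161%, so unscaled heights were tilted towards the controls across the genome. Without silenced replicate 3 the count below remained 3 of 23, in LPIN1, LPIN2 and PLPP1, and that above 0, while the shares over all shared regions were 9.53% below and 5.04% above.

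**Figure D2:**
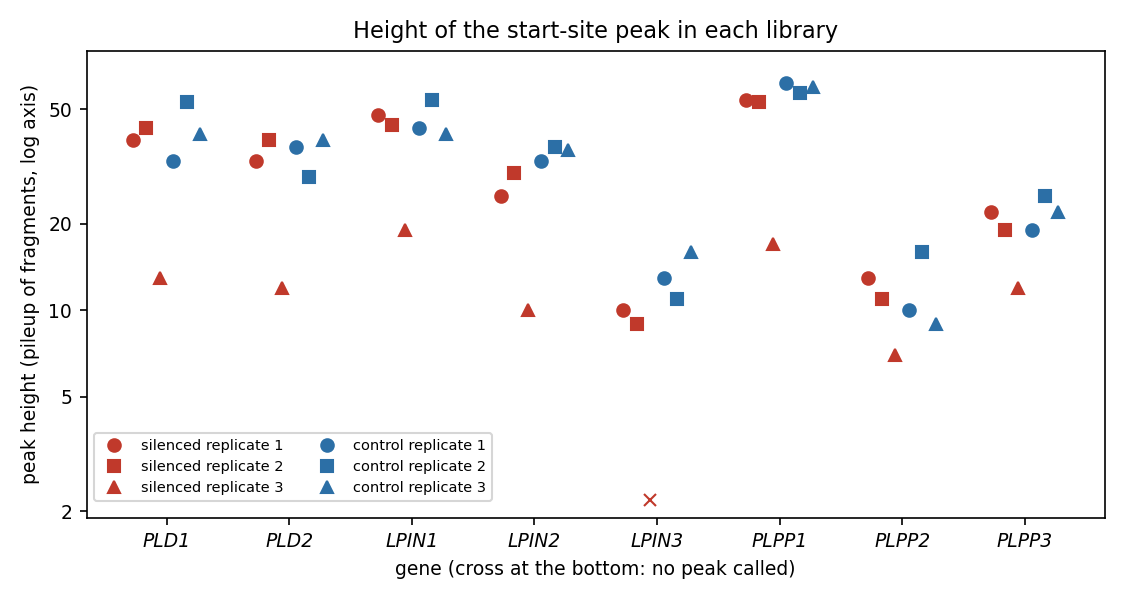
Height of the start-site peak (pileup of fragments, log axis) of each of the 8 genes, 1 point per library, silenced in red and control in blue. The cross means that the region plotted for LPIN3 was not called in silenced replicate 3, which had a separate peak of height 6 close by. The PLPP2 point of silenced replicate 3 is a peak farther than 1 kb from the start. Silenced replicate 3 (red triangles) is the lowest point at each of the 7 genes where it has a triangle.

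The 8 windows held 197 regions after the 6 lists were merged, of which 23 (11.7%) were called in all 6 libraries and 132 (67.0%) in 1 library. Over the genome these shares were 7.35% and 74.1%. The 158 regions called in 1 or 2 libraries were low, with a median height of 3 and a highest of 11, and 1 of them reached a false discovery rate (FDR, the authors' adjusted p-value) of at most 1e-05. Of the 23 shared regions, 7 lay at a start site (median height 35) and 16 elsewhere (median height 10.8), 12 of the latter inside the gene's own span and 4 in the flanks. Shared regions per 100 kb of window ran from 0 at LPIN3, 0.769 at PLPP1 and 0.954 at PLPP3 to 5.51 at PLD2 and 5.89 at LPIN1. These densities stand at percentiles 9.08, 22.6, 24.8, 76.6 and 78.5 among protein-coding genes. PLPP1 and PLPP3 thus had a single shared region each, at a span end and at the start, in windows of 130 kb and 105 kb.

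The window of LPIN1, which encodes the lipin known for its role in fat tissue and muscle, held 10 of the 23 shared regions. Not all lay inside the gene. A region outside the span (chromosome 2, 11669640 to 11670263) lay at the start of the neighbouring gene NTSR2, and others lay beyond the far end. The tallest member region of all lay inside LPIN1, 2152 bp upstream of the third start (chromosome 2, 11743939 to 11744480), and also overlapped the gene LOC124907735. It had heights of 108, 115 and 90 in silenced and 119, 123 and 112 in control libraries. It was taller than the start-site peak in all 6 libraries. By fold enrichment over local background, the authors' value for each peak, it stood at percentiles 91.0, 90.6 and 98.7 in silenced and 94.2, 92.0 and 93.2 in control libraries among the 37284 shared regions. The groups overlapped. The start-site peak itself stood at percentiles 42.6, 30.2 and 22.3 in silenced and 30.1, 38.4 and 29.4 in control libraries by fold enrichment, but between 77.8 and 87.3 by height, so its place depended strongly on which value was ranked. Near the first start of LPIN1 the peaks were weak. A region 482 bp away (11676628 to 11677062) had heights of 6 to 10 in 5 libraries and no call in control replicate 3, and another 253 bp away (11677797 to 11677996) was called in control replicate 1 alone, at a height of 7. The second start had no region within 1 kb in any library. Beyond the far end of the span lay a region of heights 57, 72 and 31 in silenced and 59, 67 and 56 in control libraries (11829259 to 11830539), which overlapped no gene of the table.

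**Figure D3:**
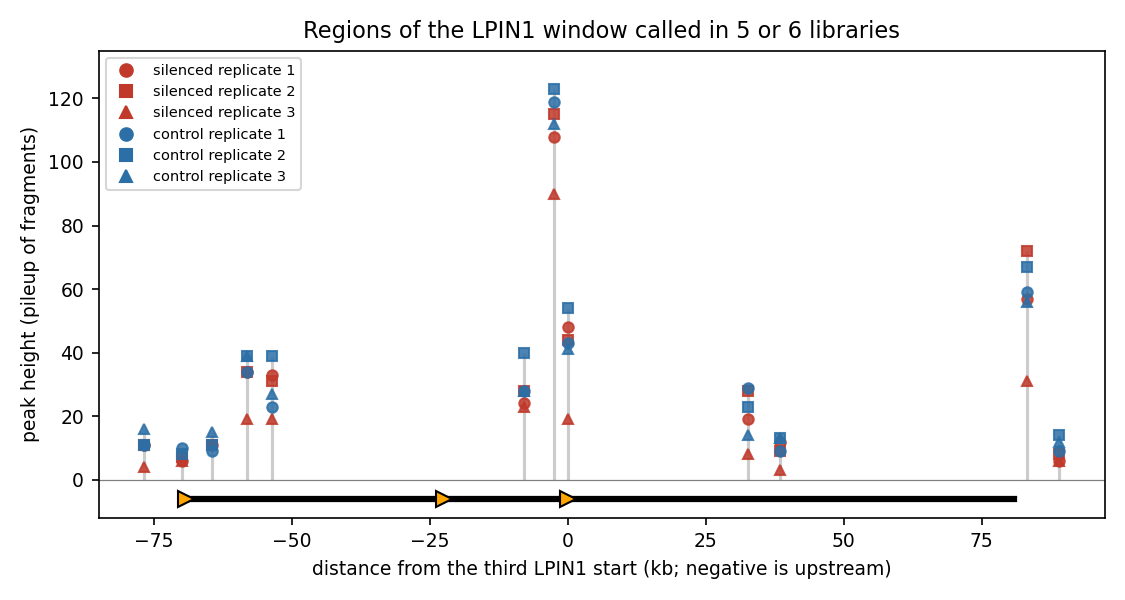
Regions of the LPIN1 window called in 5 or 6 libraries, plotted by the distance of their midpoint from the third LPIN1 start (kb) against peak height (pileup of fragments), 1 point per library; the black bar is the gene span and the arrowheads are the 3 RefSeq starts. The tallest region (heights 90 to 123) stands just upstream of the third start, and no point stands at the second.

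In the other windows the tallest shared regions away from the start were lower. In PLD1 such a region lay 37668 bp from the start, inside the gene (chromosome 3, 171772446 to 171772815), with heights of 6, 11 and 9 in silenced and 9, 13 and 17 in control libraries. In LPIN2 it lay 63395 bp from the nearest start, inside the gene (chromosome 18, 2948041 to 2948552), with 10, 15 and 6 in silenced and 6, 11 and 16 in control libraries. Both pairs of groups overlapped. In the PLD2 window it lay at the start of the neighbouring gene MINK1 (chromosome 17, 4832959 to 4834076), with 24, 31 and 4 in silenced and 29, 32 and 34 in control libraries. The value of 4 in silenced replicate 3 was far below the rest.

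Because heights of different libraries share no scale, the 23 shared member regions were compared by rank. Each library's fold enrichments were ranked over all 37284 shared regions, and limma was run on normal scores of these ranks, in which 1 unit is 1 SD over regions. No member region passed: 0 of 23 had an adjusted p-value under 0.05 (smallest adjusted p = 0.963), and 0% of all shared regions did. At an unadjusted p-value under 0.05, 1 member region ranked lower and 0 ranked higher in silenced cells, where 2.7% and 1.98% of all shared regions did. The difference in score (silenced minus control) was below 0 at 17 of the 23 regions and above 0 at 6, with a median of −0.14, against a median of 0.01 and 49.1% below 0 over all shared regions. Without silenced replicate 3 the same 23 regions divided into 10 below and 13 above 0, with a median of 0.02. The excess of regions below 0 was thus not seen without that library. At some regions the difference moved further below 0. At the PLD1 region 37668 bp from the start it was −0.27 with all 6 libraries and −0.48 without silenced replicate 3.

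Scores of the 2 groups did not overlap at 4 member regions, with silenced below control at 3 of 23 and above at 1 of 23. Over all shared regions this held for 4.78% and 5.39%. The region above was the one beyond the far end of LPIN1 (difference 0.21, SE 0.19, limma adjusted p = 0.965; 0.20 without silenced replicate 3). One of the 3 below lay inside LPIN1, 10703 bp from the first start (chromosome 2, 11688247 to 11688762), with a difference of −0.19 (SE 0.23, limma adjusted p = 0.968; −0.22 without silenced replicate 3). The other two were the MINK1 and LPIN2 start sites.

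The MINK1 start-site region in the PLD2 window had the smallest p-value of the 23. Its percentiles were 69.9, 70.9 and 2.1 in silenced and 73.0, 72.2 and 85.6 in control libraries, and the difference in score was −1.08 (SE 0.48, unadjusted p = 0.0366, limma adjusted p = 0.963). Without silenced replicate 3 the difference was −0.21 (unadjusted p = 0.35, limma adjusted p = 0.971). Over the 11 alternatives the limma adjusted p-value ran from 0.759 to 0.999. Most of the difference came from 1 library.

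LPIN2 is the member on the same chromosome as the target, its span ending 591 kb from that of DLGAP1-AS2. Its start site stood at percentiles 67.0, 67.3 and 45.4 in silenced and 71.8, 73.8 and 81.4 in control libraries. The difference in score was −0.44 (SE 0.24, unadjusted p = 0.0856, limma adjusted p = 0.963), and without silenced replicate 3 it was −0.24 (unadjusted p = 0.265, limma adjusted p = 0.967). Ranking by height gave −0.39 with an unadjusted p of 0.0365 (limma adjusted p = 0.971), so the unadjusted value crossed 0.05 with the ranking. Over the 11 alternatives the difference stayed below 0 and the limma adjusted p-value ran from 0.776 to 0.999.

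The start sites of the other 6 members with a shared region differed by less than their standard errors. The differences in score were −0.09 (SE 0.26) at PLD1, −0.17 (SE 0.23) at PLD2, −0.04 (SE 0.35) at LPIN1, −0.06 (SE 0.23) at PLPP1, and at PLPP2 and PLPP3 0.11 (SE 0.36) and 0.03 (SE 0.26), with limma adjusted p-values between 0.971 and 0.995. A value of this kind does not show that the groups were alike. Next after the MINK1 and LPIN2 start sites by unadjusted p-value was a second region beyond the far end of LPIN1, 88803 bp from the third start (chromosome 2, 11835435 to 11835856), with heights of 6, 8 and 6 in silenced and 9, 14 and 12 in control libraries and a difference of −0.45 (SE 0.39, unadjusted p = 0.264, limma adjusted p = 0.965). Here the difference was larger without silenced replicate 3, at −0.71 (SE 0.39, unadjusted p = 0.0889, limma adjusted p = 0.962), and still did not pass.

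**Figure D4:**
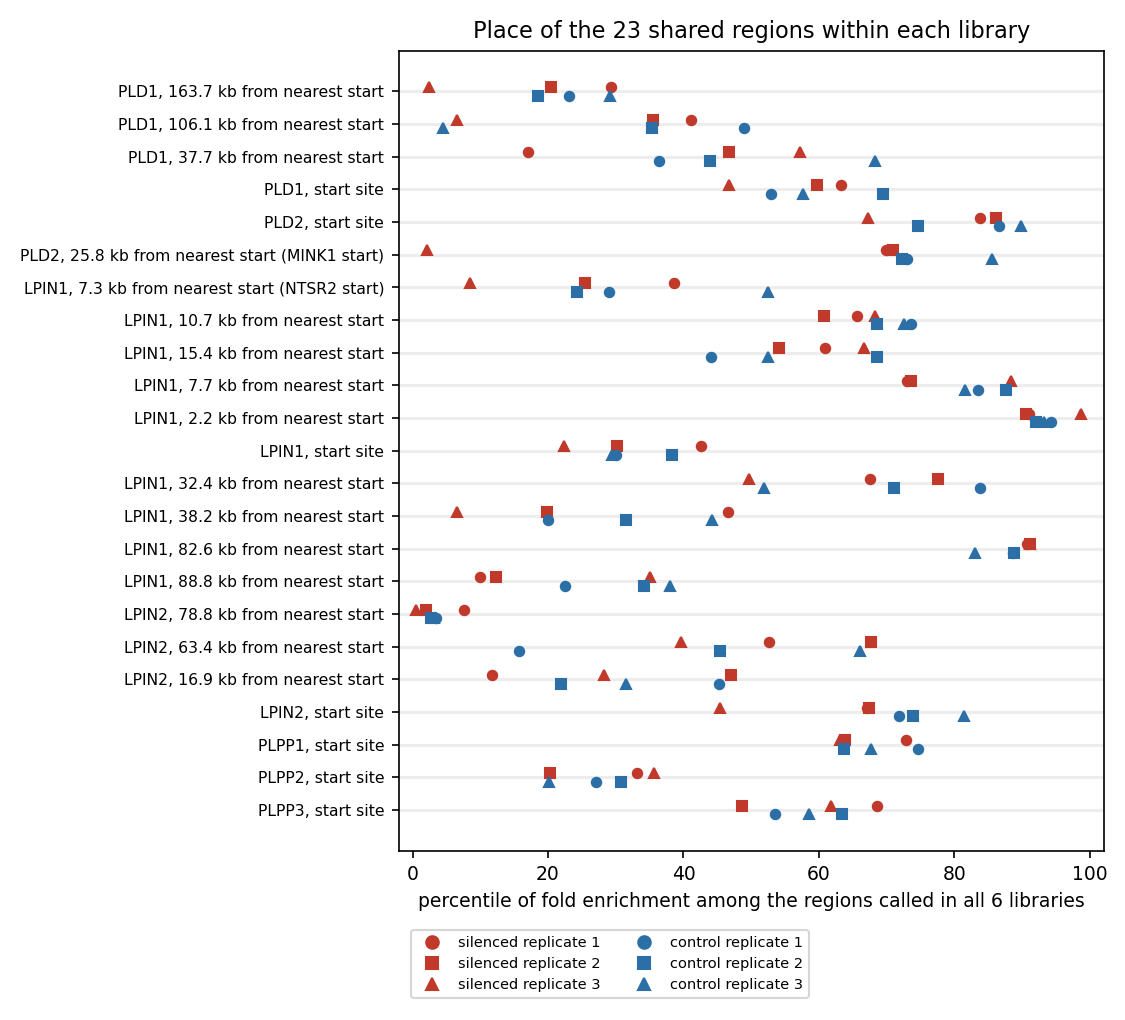
Percentile of fold enrichment, among the 37284 regions called in all 6 libraries, of each of the 23 shared member regions, 1 point per library with silenced in red and control in blue; rows give the gene and the distance to its nearest start. At most regions the colours intermix, while at the LPIN2 start site all red points lie at 45.4 to 67.3 and all blue points at 71.8 to 81.4.

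Peak numbers per window were compared next. In the LPIN3 window the silenced libraries had 3, 3 and 3 peaks and the controls 4, 4 and 6 (means 3 and 4.67; two-sided exact permutation p = 0.1, the smallest that 3 libraries against 3 allow). LPIN3 was the 1 member of 8 whose groups did not overlap, with silenced below control; the share over 19451 protein-coding genes with a peak was 1.46%, and 1.65% had silenced above control, as 0 members did. For LPIN2 the counts were 13, 7 and 9 in silenced and 15, 11 and 14 in control libraries (exact permutation p = 0.2). Without control replicate 2, whose list was the shortest, LPIN2 also had silenced below control, and likewise without silenced replicate 1. PLD1 had 15, 19 and 12 against 15, 8 and 18, and LPIN1 had 21, 16 and 14 against 14, 16 and 19. Both are long genes. PLPP1 had 10, 14 and 6 peaks against 10, 6 and 10, and PLPP3 had 4, 4 and 5 against 7, 1 and 3. The short PLD2 window had 3, 4 and 4 against 4, 5 and 4, and PLPP2 had 3, 3 and 1 against 3, 3 and 4. In all 6 of these genes the groups overlapped (exact permutation p between 0.6 and 1). The 8 windows together held 54 to 78 peaks per library, 0.0417% to 0.0591% of a list.

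No region of the 8 windows separated the groups by its calls. Regions present in the 3 silenced lists and absent from the controls numbered 0 of 197, where the share of all merged regions was 0.13%, and the converse also numbered 0, where the share was 0.2%. When the lists were restricted to an FDR of at most 1e-05, 3 member regions were present in the 3 control lists alone, which held for 1.01% of the 50350 regions left, and 0 in the 3 silenced lists alone, which held for 0.0993%. The restricted lists held 15 to 26 peaks per library in the 8 windows, so these 3 stand against fewer member regions than 197. The number of member regions left is not given here, so the 3 cannot be compared with the 1.01% as a share. Of the 3, 2 lay in the LPIN3 window and 1 beyond LPIN1 (the region starting at 11835435). The LPIN3 regions were the one next to an end of its span and one inside the gene (41352185 to 41352579). At the span end the FDR was 4.84e-05 and 1.74e-05 in the first and second silenced libraries. In the controls it was 5.29e-09, 5.23e-06 and 1.76e-11. The inner peak was 9 and 8 high in the first and second silenced libraries and 14, 16 and 9 high in the controls. Silenced replicate 3 had no call there, but a peak of height 6 close by (41352738 to 41353002) that no other library had. Both LPIN3 regions were thus called in silenced replicates 1 and 2, on the far side of the FDR limit.

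At this limit the LPIN3 window held 0 peaks in each silenced library and 2 in each control library, and the LPIN1 window 9, 9 and 7 against 10, 11 and 11. These were the 2 members with silenced below control, a pattern that 2.22% of 17075 genes with such a peak showed, while 0.129% showed the reverse. Both LPIN3 regions could be compared by rank once silenced replicate 3 was left out. The difference in score was −0.42 (SE 0.39, unadjusted p = 0.293, limma adjusted p = 0.967) next to the span end and −0.71 (SE 0.39, unadjusted p = 0.0895, limma adjusted p = 0.962) inside the gene. Neither passed the test.

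Relatives of the members and other genes of the pathway were read at their start sites. Relatives were taken by gene name, not by activity on phosphatidic acid. Of 13 such relatives (PLD3 to PLD6, PLPP4 to PLPP7 and the PLPPR genes), 8 had a peak in all 6 libraries and 2, PLD4 and PLPPR3, in none. The 8 are 61.5%, close to the 60.2% over all protein-coding genes. The tallest belonged to PLPP5, a phosphatase of the same family, with heights of 104, 101 and 32 in silenced and 120, 125 and 95 in control libraries. A further 18 genes, here called makers, encode enzymes that make phosphatidic acid or its precursor. They are glycerol-3-phosphate and lysophosphatidate acyltransferases and diacylglycerol kinases. Of these 18, 13 (72.2%) had a peak in all 6 libraries and 1, GPAT2, in none. All 8 of the enzymes that use phosphatidic acid or diacylglycerol had one in all 6. The makers had 17 shared start-site regions, as AGPAT1, DGKA and DGKH each had more than 1. Of the shared start-site regions, 1 ranked higher and 7 lower in silenced cells among the relatives (median difference −0.16), 12 higher and 5 lower among the makers (median 0.12), and 5 higher and 3 lower among the users (median 0.07). For the members these numbers were 2 and 5 (median −0.06). Of all shared regions, 49.1% ranked lower. None passed the test: 0 regions of these 4 lists had a limma adjusted p-value under 0.05, and 0 had an unadjusted one under 0.05. Without silenced replicate 3 the members divided into 5 higher and 2 lower (median 0.02), the relatives into 3 and 5 (median −0.08), the makers into 13 and 4 (median 0.21) and the users into 5 and 3 (median 0.04).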

How the data were processed

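ATAC-seq peak lists of 6 libraries of NCI-H1703 (3 silenced, 3 control) were used. Per the submitters' processing notes, Trimmomatic 0.36, Bowtie2 2.2.6, Picard 2.8.2, MACS2 2.1.1 and bedtools 2.25.0 were used with build GRCh38. Transposase offset and handling of duplicate and mitochondrial reads are not given in the sources used here. Per the file headers, the authors deposited for each peak a fold enrichment (a ratio), a p-value with its FDR, and a pileup signal (height). Read depth is unknown; the smallest (height + 1) / fold − 1 of a list served as its background coverage.

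Chromosomal peaks (1 to 22, X, Y) were merged into regions at an overlap of at least 1 bp. Rank scores were fitted with limma 3.58.1 (trend) and Benjamini-Hochberg adjustment over all shared regions. The procedure was also run on simulated data with shifts larger than most member differences, so its power for smaller ones was not tested. Peak counts used exact permutation. Genes, starts and sequences came from RefSeq GRCh38.p14, which gives no exons here, so exon, intron and UTR were not analysed here. Same-numbered libraries did not deviate together (correlations −0.00829 to 0.00238), so numbers were not used as pairs. Named regions were each member's start site, its tallest other shared region, group-only regions and the 3 smallest p-values; the LPIN3 regions, the region beyond the LPIN1 span and regions with groups that did not overlap were chosen after their values were seen. Members and lists were chosen with earlier results of these data known. Height counts without silenced replicate 3 and counts of direction under the alternatives were added after seeing the data. Copy number of the line was not analysed here.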

Additional observations from a re-analysis of the deposited data

How the results depend on the processing

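Under each of 11 alternatives, the replicate block among them, 0 member regions passed the rank test (limma), and between 0 and 2 did so unadjusted. Members with peak counts that did not overlap between groups numbered 1 (LPIN3), but 2 in the FDR-limited lists (LPIN1 and LPIN3), 2 at heights of at least 4 (LPIN3 and PLPP2), 2 by same-numbered pairs (replicate block; LPIN2 and LPIN3), 0 for the gene spans alone and 1 to 2 when single libraries were left out. Control-only member regions numbered 0, but 3 in the FDR-limited lists. Leaving out single libraries gave 0 to 3 control-only and 0 to 3 silenced-only regions, where fewer libraries have to meet the criterion. The difference in members with a start-site peak (silenced minus control) moved from −0.333 to 0.667 within 250 bp of the start and ran from −0.5 to 0 when single libraries were left out.

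The rank difference at the PLPP3 start site changed sign by height (−0.0112). Leaving out single libraries reversed the sign at 8 named regions, whose values ran from −0.179 to 0.0355 at the PLD1 start site, −0.343 to 0.0217 at PLD2, −0.186 to 0.0966 at LPIN1, −0.144 to 0.0287 at PLPP1 and −0.0809 to 0.171 at PLPP3, and from −0.483 to 0.057 at the inner PLD1 region, −0.157 to 0.294 at the tallest LPIN1 region and −0.0623 to 0.633 at the inner LPIN2 region. All reversed values were smaller than their standard errors, and the cause was not tested. The signs at the start sites of LPIN2 and PLPP2 and at the MINK1 region held under all 11 alternatives. Depth in reads is unknown, so a missing call of a weak peak, as at LPIN3 in silenced replicate 3, does not show closed chromatin.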
